A study of Mus musculus with 6 samples.

Results

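The clustered protocadherins are a family of cadherin-like cell surface proteins encoded side by side on mouse chromosome 18 in an alpha, a beta and a gamma cluster, which hold 14, 22 and 22 genes in RefSeq. Members were taken as every probe set of the array whose platform annotation carries an alpha, beta or gamma symbol, alone or among several. This gave 23 of the 35556 probe sets: 1 shared by all 14 alpha genes, C-type isoforms Pcdhac1 and Pcdhac2 included, and 22 with 1 beta gene each, Pcdhb1 to Pcdhb22. No probe set carried a gamma symbol, so the gamma cluster was not analysed here, and the 36 genes that could be read, of 21335 gene symbols on the array, were the alpha genes as a pool and the beta genes 1 by 1.

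Each neuron is known to switch on a small, partly random choice of these genes, and the combination on its surface lets the branches of a cell recognise and avoid one another. In the alpha and gamma clusters each gene adds its own first exon to constant exons that the whole cluster shares, whereas beta genes stand alone. Choice of a promoter is known to rest on CTCF, which binds many of these promoters and distant enhancers, and on cohesin, which with CTCF brings enhancer and promoter together; DNA methylation and Smchd1 keep unchosen promoters silent. Reduced expression of clustered protocadherins is a well known outcome of cohesin or CTCF loss in neural cells, where the family is expressed.

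Total RNA came from 6 cultures of mouse embryonic stem (ES) cells, each read on 1 Mouse Gene 1.0 ST array of Affymetrix. The cells are labelled as female and of a mixed C57BL/129 background. The 3 control cultures were Scc1 wt/wt ERT2-Cre and the 3 others Scc1 lox/lox ERT2-Cre, where Cre can cut out Scc1, the older name of the cohesin ring gene Rad21. Both genotypes carried the tamoxifen-activated ERT2-Cre, grew on laminin in N2B27 medium with LIF and 2i, kinase inhibitors that hold ES cells in the naive state, and had received 4-hydroxytamoxifen (4-OHT) at 80 nM for 24 h per the sample labels (the design text gives the dose in mM). No culture without 4-OHT was compared, so the loss of Rad21 and any earlier difference between the lines cannot be told apart. The labels do not say how many independent lines or clones each genotype comprised.

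Values are deposited log2 intensities, and a difference is lox/lox minus wt/wt on that scale. The control cells had a Rad21 level of 10.02 ± 0.03 and the lox/lox cells one of 6.09 ± 0.04 (mean ± SD, n = 3), 15.2-fold lower (difference -3.92, standard error (SE) 0.06, adjusted p = 4.12e-06 in limma). All 10 measured ES cell markers, among them Pou5f1, Nanog and Sox2, lay well above the median of all probe sets (4.90), at means of 8.39 to 13.16. Over those 10 markers the mean level per array was 10.60 to 10.65 for wt/wt against 10.21 to 10.37 for lox/lox, and 4 of the 10 fell, where 2.75% of all genes with a probe set of their own were called in either direction: Klf4 (-1.23), Fgf4 (-0.57), Nanog (-0.55) and Sox2 (-0.48). Klf4 passed in each of the 6 fits that left out 1 array, Fgf4 and Nanog in 1 of them and Sox2 in 0 (adjusted p up to 0.101, 0.141 and 0.101). Within the genotypes, wt/wt replicate 2 and lox/lox replicate 3 lay apart from the others (loadings of -0.62 and -0.48 on the leading principal component of each array's deviation from its genotype's mean, against 0.12 to 0.50).

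The clustered protocadherins gave dim signals in both genotypes. Their means over the 6 arrays ran from 2.89 to 4.50 with a median of 3.50, and 14 of the 23 lay below the first quartile of all probe sets (3.74). On no array did any member reach the median of all probe sets, the highest single value being 4.68, for Pcdhb8 in wt/wt replicate 2. The 1015 measured olfactory receptor genes, a class best known from the nose and chosen for this purpose after the values were seen, had a median of 3.31 and a central 90% between 2.84 and 4.46. In that range lay 22 of the 23 members, and Pcdhb8 was just above it. Above the olfactory receptor median lay 16 of the 23. The data hold no detection call. Probes of different genes also differ in how strongly they bind, so no order of the genes is read from these levels.

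**Figure D1:**
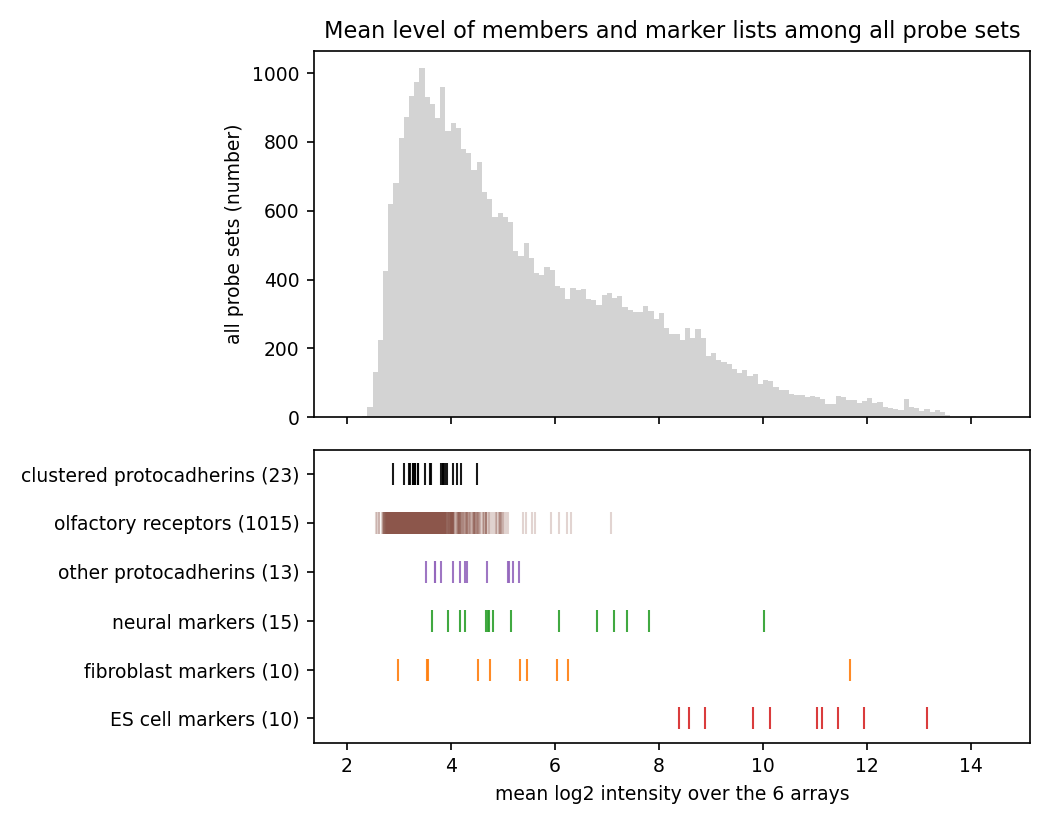
The upper panel counts all 35556 probe sets by their mean log2 intensity over the 6 arrays, and in the lower panel each tick is 1 probe set (clustered protocadherins) or gene (other lists). The clustered protocadherins lie between 2.89 and 4.50 among the olfactory receptors, while the ES cell markers lie at 8.39 and above.

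The central question was whether the family differed between lox/lox and wt/wt cells, and no member passed the test. Rad21 was read as RNA only, and its protein was not measured. Of the 23 probe sets, 0 were called at an adjusted p under 0.05 in limma over all probe sets, where 2.27% of all probe sets were called (0.897% higher and 1.38% lower). Among the 13779 probe sets with means in the range of the members, 0.61% were called. At shares this low, 0 of 23 is close to the share over all probe sets. The count therefore does not set the members apart from other probe sets. At an unadjusted p under 0.05 there was 1 member, where 14% of all probe sets and 6.94% of those in the range had such a p. The median difference of the members was -0.003, beside -0.001 over all probe sets, with 12 members lower and 11 higher by sign.

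The alpha cluster was read through its shared probe set, which covers the isoforms Pcdha1 to Pcdha12, Pcdhac1 and Pcdhac2. The annotation does not say which exons its probes match, so an exchange of 1 alpha isoform for another may not be visible in it. Replicates 1 to 3 gave 4.09, 3.79 and 3.85 with wt/wt, and 3.84, 3.82 and 3.69 with lox/lox. The groups overlapped, since only wt/wt replicate 1 stood clearly higher. The difference was -0.12 with an SE of 0.10 and a 95% interval from -0.36 to 0.11 (adjusted p = 0.671 in limma). It was -0.036 without wt/wt replicate 1 and -0.19 without wt/wt replicate 2, the extremes of the 6 fits that left out 1 array.

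Among the beta genes Pcdhb5, Pcdhb19 and Pcdhb17 had differences of about the same size, each -0.20 after rounding. Which beta gene came first depended on the arrays: with 1 array left out it was Pcdhb5 in 2 of the 6 fits, Pcdhb17 in 2, and Pcdhb19 and Pcdhb10 in 1 each. Pcdhb5 read 3.98, 3.90 and 3.85 in wt/wt replicates 1 to 3, and in the lox/lox replicates 3.78, 3.66 and 3.68. All lox/lox arrays lay below all wt/wt arrays, which was seen in 1 of the 23 members, in 10.5% of all probe sets and in 6.05% of those in the range of the members (19.8% of all probe sets were separated in either direction). The difference was -0.20 (SE 0.07, 95% interval -0.38 to -0.03), a 1.15-fold lower level, and it did not pass (adjusted p = 0.279). No member had all lox/lox arrays above all wt/wt arrays, where 9.34% of all probe sets did.

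Pcdhb19 read 3.34, 3.42 and 3.14 with wt/wt against 3.10, 3.15 and 3.05 with lox/lox, a difference of -0.20 (SE 0.09, adjusted p = 0.394). Pcdhb17 read 3.08, 3.30 and 3.21 against 3.02, 3.09 and 2.90, also a difference of -0.20 (SE 0.09, adjusted p = 0.400). In both, the top lox/lox array lay just above the lowest wt/wt array, so the groups overlapped slightly. Both were 1.15-fold lower by their means, as was Pcdhb5.

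The brightest beta probe sets were those of Pcdhb8, Pcdhb15 and Pcdhb7. Pcdhb8 read 4.39, 4.68 and 4.50 with wt/wt against 4.43, 4.46 and 4.52 with lox/lox, a difference of -0.06 (SE 0.09, 95% interval -0.27 to 0.16). The lox/lox values fell inside the range of the wt/wt values. Pcdhb15 read 4.18, 4.12 and 4.30 against 4.21, 4.23 and 4.11, a difference of -0.02 (SE 0.08, interval -0.20 to 0.17). Pcdhb7 read 4.21, 3.98 and 4.06 against 4.24, 4.19 and 4.10, a difference of 0.09 (SE 0.09, interval -0.11 to 0.30). Their adjusted p were 0.868, 0.961 and 0.719, and the groups overlapped in each.

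**Figure D2:**
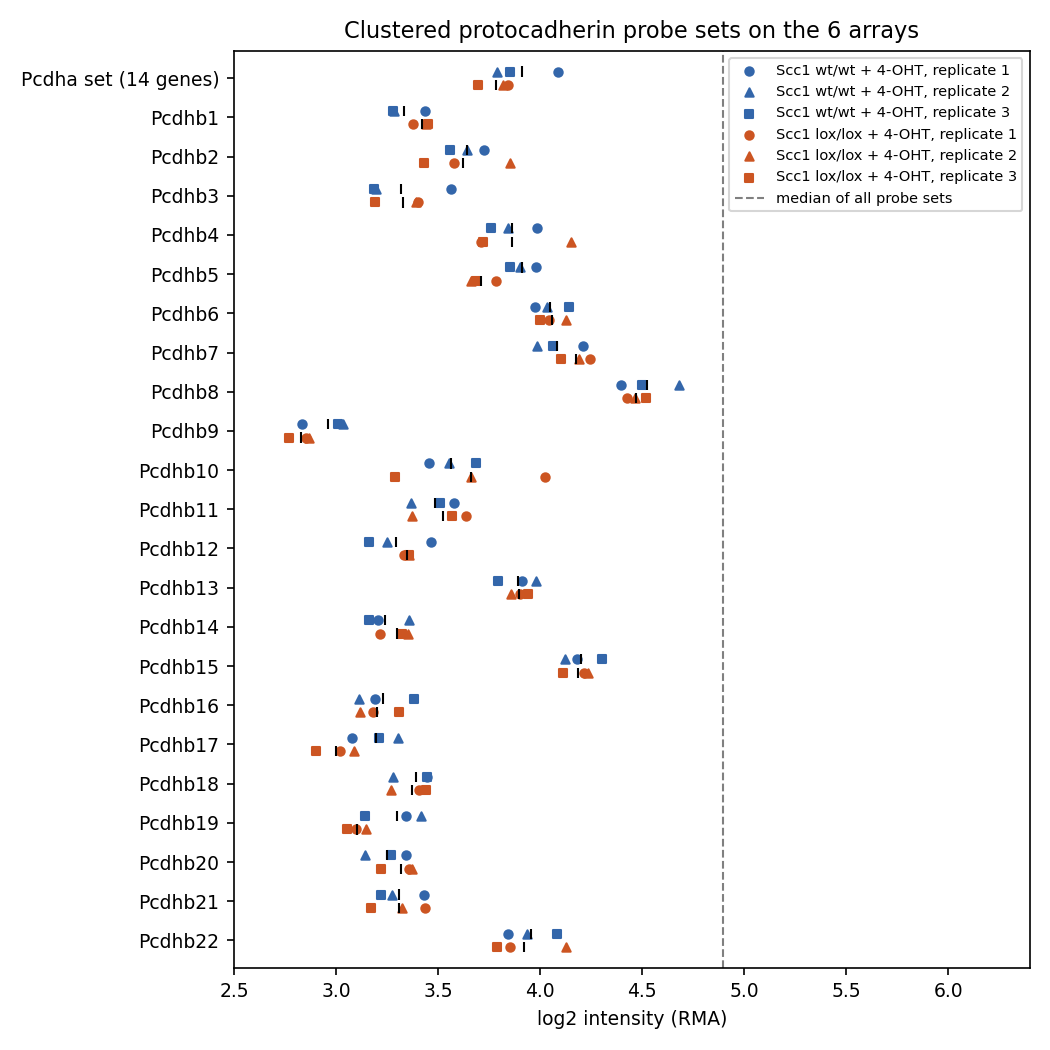
Each row is a member probe set and each point 1 array (log2 intensity; blue wt/wt, orange lox/lox; the marker shape is the replicate), with a black tick at each group mean. All points lie left of the dashed median of all probe sets (4.90), and only in Pcdhb5 do the 2 colours not overlap.

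The other 16 beta genes had differences between -0.13 (Pcdhb9) and 0.10 (Pcdhb10), and their adjusted p were 0.573 or more. Pcdhb10 was the member with the widest spread, with 3.46, 3.55 and 3.68 for wt/wt and 4.03, 3.66 and 3.29 for lox/lox. Its lox/lox arrays thus held both the highest and the lowest of its 6 values, and its interval was the widest of the family (-0.33 to 0.52). Its difference rested on single arrays, at -0.088 when lox/lox replicate 1 was left out and 0.28 when replicate 3 of that genotype was. Pcdhb13 had the narrowest spread, with an SD of 0.07 over all 6 arrays. The median SD within genotypes was 0.11 for the members and 0.13 for all probe sets in their range. Along the beta cluster, differences had a median of 0.008 in the 11 genes nearest the alpha cluster and -0.02 in the remaining 11, and their rank correlation with position was -0.20 over 22 genes, given as a description since the genes share the same 6 arrays.

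The arrays bounded the size of any change in signal. The 95% interval of each of the 23 members lay within a 1.5-fold change in either direction, the lowest bound being -0.41 (Pcdhb19) and the highest 0.52 (Pcdhb10). These intervals concern the measured signal, part of which is background. In dim probe sets background keeps a log2 difference smaller than the change in RNA, so a change in a transcript present at low level may not be detectable here. With each member's own SE, a difference of 0.39 (Pcdhb5) to 0.96 (Pcdhb10), with a median of 0.48, would have been needed to reach the largest p that was called (0.00113). Fewer expressing cells and less RNA per cell cannot be told apart in such bulk samples.

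**Figure D3:**
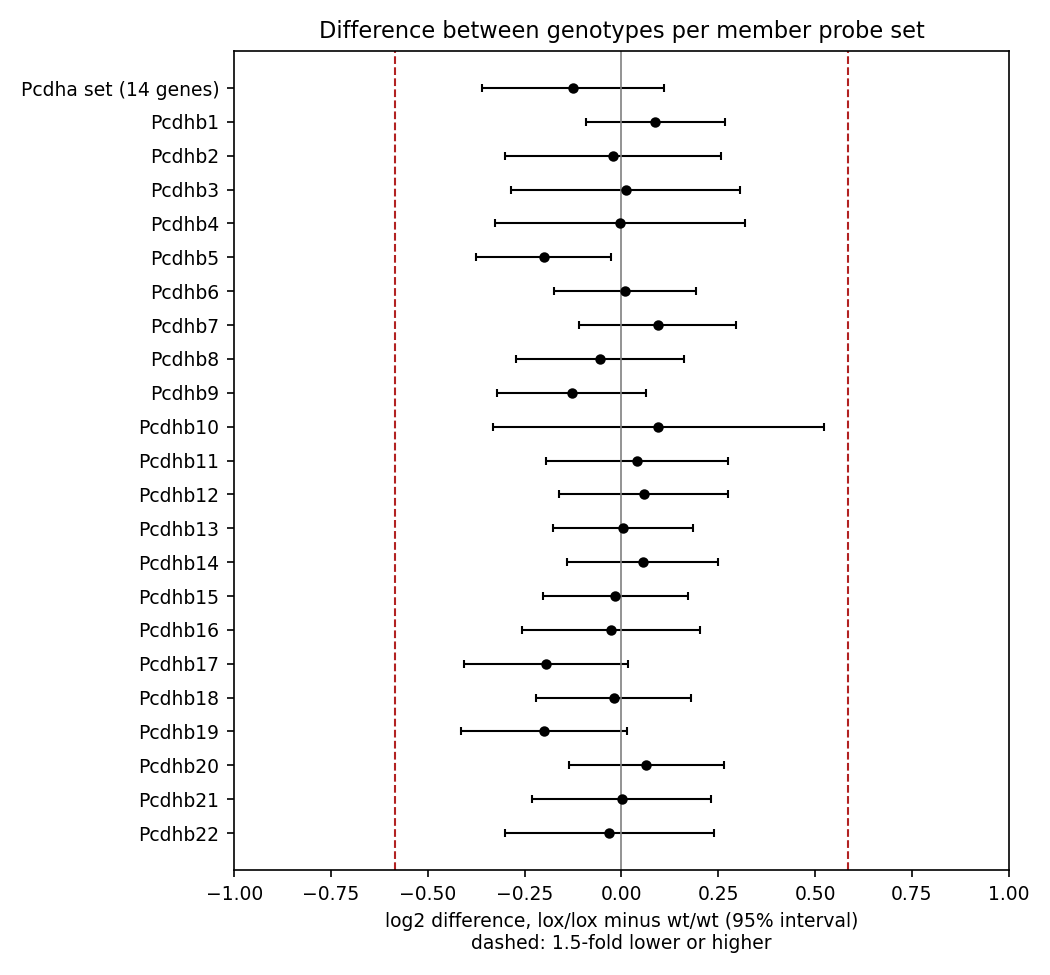
Points are the log2 differences (lox/lox minus wt/wt) of the 23 member probe sets with 95% intervals from limma, and dashed lines mark a change of 1.5-fold. Every interval lies between the dashed lines, and only that of Pcdhb5 excludes 0.

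The per-array median of the beta genes was 3.51, 3.39 and 3.48 for wt/wt replicates 1 to 3 and 3.51, 3.41 and 3.44 for those of lox/lox. Both genotypes spanned much the same range. Of the 23 members, 9 had their lowest value on lox/lox replicate 3, an array that stood apart, and 1 to 5 had it on each of the other arrays. That array also had a low first quartile of all probe sets (3.71 against 3.74 and 3.74 in the other lox/lox arrays). The first quartile was as low on wt/wt replicate 2 (3.71), where 4 members had their lowest value and 6 their highest. The part of lox/lox replicate 3 in the differences of single members was not tested beyond leaving it out. Without it the member median was 0.04 and 9 members were lower by sign, and without both arrays that stood apart these were 0.03 and 10. In neither fit was any member called, but only 0.956% and 0.00562% of all probe sets were called in them, so these counts say nothing about the members.

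The genes that flank the clusters were compared next, to see whether the region around the members differed between the genotypes. Of 22 measured neighbours, 10 on each side and 2 between the beta and gamma clusters, 0 passed in limma, and 1 had an unadjusted p under 0.05, Wdr55 on the alpha side (difference 0.19, adjusted p = 0.293). Their median difference was 0.09, beside -0.001 over all probe sets, and 15 of the 22 lay above the median level of all probe sets. Since 2.75% of all genes with a probe set of their own were called, 0 of 22 is close to that share. An unadjusted p under 0.05 was found in limma for 14% of all probe sets. Between the clusters, Taf7, a subunit of the general transcription factor TFIID, was bright at 8.06 ± 0.15 with wt/wt and 7.93 ± 0.09 with lox/lox (n = 3; difference -0.13, adjusted p = 0.672 in limma). Its neighbour Slc25a2, a mitochondrial ornithine carrier, gave a dim signal of 3.47 ± 0.04 and 3.56 ± 0.11 (difference 0.09, adjusted p = 0.724). The region thus held genes with strong signals close to the dim members, and neither group contained a call.

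**Figure D4:**
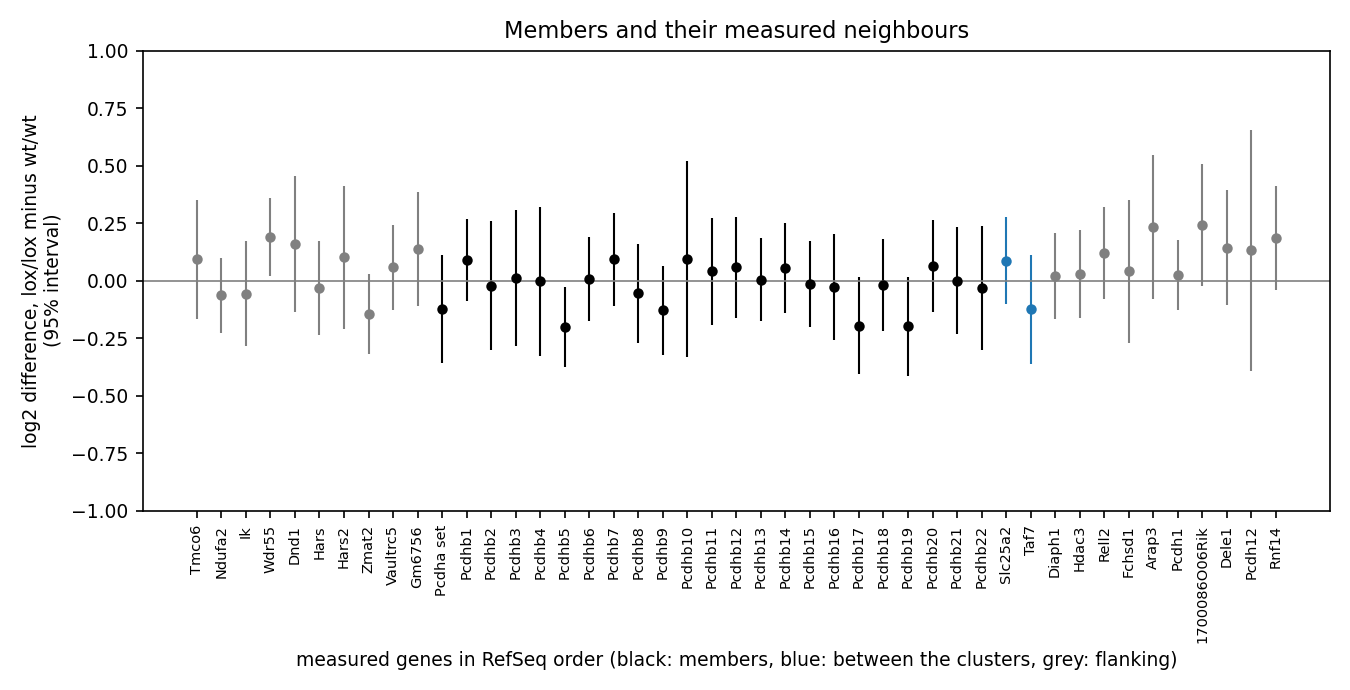
Log2 differences with 95% intervals are shown for members (black), the genes between the beta and gamma clusters (blue) and 10 measured genes on each side (grey), in RefSeq order and not to scale. No gene passed the adjusted threshold, and the intervals of Pcdhb5 (lower) and Wdr55 (higher) exclude 0.

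Other protocadherins, encoded outside the clusters, were equally without a call. Of 13, 0 passed in limma, close to the 2.75% called among all genes with a probe set of their own. At an unadjusted p under 0.05 there was 1, where 14% of all probe sets had such a p. The median difference was 0.01 and the means were 3.53 to 5.32. The smallest p were those of Cdhr1, a photoreceptor cadherin (difference 0.36, adjusted p = 0.165), and Pcdh8 (difference 0.19, adjusted p = 0.372). Among 13 classical cadherins and catenins 1 rose and 2 fell, and 5 had an unadjusted p under 0.05 in limma. The shares to set beside these counts are the same 2.75% and 14%. Cdh3, which encodes P-cadherin, rose by 1.17 (SE 0.18), while Cdh4, which encodes R-cadherin, fell by 0.63 and Ctnna1, the catenin that links cadherins to actin, fell by 0.44 (adjusted p = 0.0301, 0.0362 and 0.0416). Without single arrays Cdh3 passed in 1 of 6 fits and Cdh4 and Ctnna1 in 0, with adjusted p of up to 0.110, 0.118 and 0.151.

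Of the factors known to act on the clusters, CTCF itself showed no call: Ctcf had a level of 8.98 ± 0.10 with wt/wt and 8.91 ± 0.06 with lox/lox (n = 3; adjusted p = 0.755 in limma). Of 13 measured cohesin and CTCF genes, 1 rose and 1 fell. The share called among all genes with a probe set of their own was 2.75%. Besides Rad21, the cohesin subunit gene Stag2 rose by 0.54, and had an adjusted p of 0.0402, which rose to as much as 0.133 when 1 array was left out and missed the threshold in all 6 such fits. Among 19 genes of silencing and DNA methylation 2 rose and 1 fell, and 10 had an unadjusted p under 0.05 in limma. The shares were 2.75% called among all genes with a probe set of their own and 14% of all probe sets with such a p. Dnmt3l, a cofactor of de novo methylation, rose by 1.48 (SE 0.07, adjusted p = 0.00154) and passed in all 6 of those fits. Dnmt3b, a de novo methyltransferase reported to methylate clustered protocadherin promoters, rose by 0.47 (adjusted p = 0.0359, up to 0.144, 0 of 6 fits). Tet2, which oxidises methylcytosine, fell by 1.77 (SE 0.27, adjusted p = 0.0288, up to 0.120, 1 of 6 fits). Promoter methylation was not measured, and any link between these transcripts and the members' values was not tested.

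Of 21 measured signalling partners, such as kinases, proteases and actin regulators that act with clustered protocadherins, 1 rose and none fell in limma, with 5 at an unadjusted p under 0.05. Of all genes with a probe set of their own 2.75% were called, and 14% of all probe sets had such a p. Marcks, a membrane-bound actin regulator and substrate of protein kinase C, rose from 5.92 ± 0.09 to 6.98 ± 0.27 (n = 3; difference 1.06, SE 0.14, adjusted p = 0.0171 in limma). When 1 array at a time was left out, it passed in 2 of 6 fits, and the adjusted p reached 0.0768.

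Markers of neural cells, in which the family is best known, were also without a call in the main limma fit. Of 15, 0 passed in limma, where 2.75% of all genes with a probe set of their own were called. At an unadjusted p under 0.05 there were 5, where 14% of all probe sets had such a p. The median difference was 0.13. Their mean level per array was 5.60 to 5.71 for wt/wt and 5.69 to 5.75 for lox/lox, and 7 lay above the median of all probe sets. The smallest p were those of Nefm, a neurofilament gene (difference -0.83, adjusted p = 0.0632, or 0.00782 when fitted with 1 probe set per gene), and Map2, a dendritic microtubule protein gene (difference 0.43, adjusted p = 0.213), which pointed in opposite directions. Of 10 fibroblast markers, which would show feeder cells, 0 passed and 2 had an unadjusted p under 0.05, Dcn (difference 0.21, adjusted p = 0.264) and Vim (difference 0.24, adjusted p = 0.275). Their mean level per array was 5.29 to 5.48 for wt/wt and 5.40 to 5.51 for lox/lox. The part of other cell types in the members' values was not tested.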

How the data were processed

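The deposited values are log2 intensities of 35556 probe sets, which the authors made by RMA (the submitters' processing notes also name affy). Versions, options and genome build: not given in the sources used here. RMA makes the arrays' distributions alike, so an overall change in RNA per cell is not seen, and background keeps dim probe sets above 0. Gene names came from the platform annotation (21789 with 1 gene symbol, 1621 with several, 12146 unnamed here). RefSeq (GRCm38.p6) gave gene order only, and no sequences or coordinates are printed.

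The genotype comparison used limma 3.58.1 and R 4.3.3 (functions lmFit, eBayes; 2.90 prior and 4 residual degrees of freedom) on all probe sets, two-sided, with Benjamini-Hochberg adjustment over all of them and calls under 0.05. Context genes use their brightest single-gene probe set. The 3 samples per genotype are biological replicates per the design text, and their number limits the precision. Members, lists and the naming rule (called members, the 3 brightest and 3 largest differences per cluster, shared probe sets, called list genes or else the 2 smallest p) were chosen with earlier results of these data known. Named outside it, after their values were seen, were Pcdhb9, Pcdhb10 and Pcdhb13. The code was tested on simulated arrays. There, 24% of probe sets changed by 0.5 and 75% of those changed by 1 were recovered. With only the members changed, each by -0.5, 0 of them were called. Similar beta genes may share probe signal.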

Additional observations from a re-analysis of the deposited data

How the results depend on the processing

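No member was called with quantile, median or cyclic loess normalization, with named probe sets only or with 1 probe set per gene (22 members). The same held for trend and robust eBayes, array weights, each array left out and a replicate block. It also held with both arrays that stood apart left out, a fit chosen after seeing the data. Stricter thresholds on the main limma fit could add no member call, so they were no further check. The smallest adjusted p of any member lay between 0.179 (named probe sets only) and 0.486. Few probe sets of any kind were called in some of these fits. The share was 0.343% with the replicate block and 0.183% to 1.26% with 1 array left out. In such fits the absence of member calls says little about the members. The filter on dim probe sets (means at or below 4.90) removed all 23, and no gamma median could be computed. Median centring gave 16 instead of 12 members lower by sign. In 14 of the 23 members the sign of the difference turned in at least 1 of the 6 fits without 1 array. Among members named by the rule these were Pcdhb8 and Pcdhb15: Pcdhb8 ranged from -0.12 to 0.023 (positive without wt/wt replicate 2) and Pcdhb15 from -0.056 to 0.034 (positive without either wt/wt or lox/lox replicate 3). The calls over all probe sets, 489 lower and 319 higher, moved much more, and the cause was not tested. They were 316 lower with median centring (245 higher), 746 and 543 after the dim filter, 803 and 615 with named probe sets only, 508 higher with 1 probe set per gene (720 lower), 89 and 60 at an adjusted p under 0.01, 294 and 207 with a change of at least 1.5-fold, and 2 and 0 without both arrays that stood apart. Leaving out 1 array gave 37 to 280 lower and 28 to 169 higher, fewest without wt/wt replicate 3. Replicate numbers did not pair the samples: deviations of same-numbered arrays correlated at 0.06, -0.12 and -0.05, and 1 of 6 arrays correlated best with its own number. With the replicate block 78 were lower and 44 higher, and of the named genes Stag2, Dnmt3b, Cdh3, Cdh4, Ctnna1, Sox2, Nanog and Fgf4 lost their calls. With median centring Stag2, Dnmt3b, Ctnna1 and Nanog lost theirs (adjusted p of 0.0774, 0.0696, 0.0666 and 0.0546). Nefm gained a call with named probe sets only, with 1 probe set per gene, after the dim filter and with trend and robust eBayes. Its adjusted p in these limma fits were 0.0129, 0.00782, 0.0306 and 0.0453. Without both arrays that stood apart Rad21 alone of the named genes kept its call.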
